A study of Mus musculus with 32 samples.

Results

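Glutamate receptors, and the scaffold proteins that hold them in place beneath the synaptic membrane, were followed in striatal RNA of mice of 4 genotypes. Members are the protein-coding genes of the GENCODE M21 annotation named Gria, Grik, Grid or Grin followed by a digit, Grm followed by a single digit, Dlg1 to Dlg4, Dlgap1 to Dlgap4, Shank1 to Shank3 or Homer1 to Homer3. The rule finds 41 of the 54532 genes in the count table. In all, 42 symbols match, and Grin1os was left out because it is an antisense RNA. Grid2ip, the gene of a scaffold protein, is a member because the rule reads the name only as far as the first digit.

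Glutamate from cortical and thalamic axons acts on the spines of striatal projection neurons. AMPA receptors carry most of the fast current there, NMDA receptors let in calcium when the membrane is depolarized, kainate receptors act on both sides of the synapse, and metabotropic receptors signal through G proteins, those of group I to calcium release and those of groups II and III to less cAMP. Beneath the membrane, guanylate kinases of the Dlg family hold receptor tails, SAPAP proteins from the Dlgap genes link them to Shank, and Homer ties Shank to the group I metabotropic receptors.

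The study asked what the loss of Msh3, a mismatch repair gene, does in a mouse model of Huntington's disease. In zQ175 mice the Htt gene itself holds a long CAG repeat, so that the mutant gene is under its native promoter. The Msh3-/- allele is a whole-body knockout made with CRISPR by cuts in exons 3 and 8. All mice were littermates on the C57BL/6J strain from zQ175:Msh3+/- fathers and Msh3+/- mothers, and polyA RNA of the whole striatum was sequenced as paired reads of 150 bases. Each group had 8 mice of 6 months of age. The wild-type, Msh3-/- and zQ175 groups had 4 males and 4 females each, and the zQ175:Msh3-/- group, which carries both alleles, had 5 males and 3 females. Replicates are named here by sex and number, as M1 or F1.

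The counts on genes summed to 13696875 to 22983977 in wild-type, 12449707 to 19871631 in Msh3-/-, 12359347 to 25030335 in zQ175 and 12946237 to 18448721 in zQ175:Msh3-/- mice. A gene with 3 reads in the shallowest library holds a share of 2.43e-05%. Levels are given as counts scaled to 1000000 per mouse (CPM, with edgeR's TMM factors) where a gene is compared between mice. They are given as TPM, which corrects for transcript length, where genes are compared with each other. Msh3 itself, read first as a check of the labels, had 22.9 CPM in the lowest, 23.7 in the median and 27.5 in the highest wild-type mouse, and 22.8, 24.1 and 27.4 CPM in zQ175 mice. In Msh3-/- mice the 3 values were 10.4, 11.5 and 13.6 CPM, and in zQ175:Msh3-/- mice 11.1, 12.8 and 14.2 CPM. No mouse of either knockout group reached the lowest mouse with Msh3. These counts cover the whole gene, not only the stretch between the CRISPR cuts, so they cannot tell Msh3-/- from Msh3+/- mice. The label of the tissue was read against markers of spiny projection neurons, the principal cells of the striatum. Of 14 such genes, 13 were found, and their summed level in wild-type mice was 9080 ± 633 TPM (SD, n = 8), with Ppp1r1b the most abundant at 2750 ± 238 TPM.

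Levels of the members in wild-type striatum were compared in TPM. Dlg4, the gene of the scaffold PSD-95, was the most abundant at 650 ± 43.1 TPM (SD, n = 8 here and for the other levels of the paragraph), followed by the SAPAP gene Dlgap3 at 498 ± 43.3 TPM. Among receptors, the obligatory NMDA subunit gene Grin1 led at 331 ± 16.9 TPM, ahead of the AMPA subunit genes Gria2 at 303 ± 14.3 TPM and Gria1 at 200 ± 6.72 TPM. Homer1 stood at 207 ± 25.6 TPM, within its own spread of Gria1 and of Dlg2 at 195 ± 11.9 TPM and Shank3 at 186 ± 17.2 TPM. Grik5 led the kainate subunits at 158 ± 14.1 TPM, and Grm5 the metabotropic receptors at 151 ± 10.1 TPM. At the other end, Grik1 was at 3.03 ± 0.501 TPM, Grm2 at 2.09 ± 0.976 TPM, Grin3b at 0.971 ± 0.304 TPM and Grid2ip at 0.869 ± 0.145 TPM, the last 2 within their spread of each other. Grm6, a receptor of the retina, had at most 0.0787 CPM in any mouse and no read in any wild-type mouse. It alone failed the filter on low counts, so 40 members were tested. Together the members took 0.840 ± 0.029% of the reads on genes in wild-type and 0.748 ± 0.029% in zQ175 mice, and 0.833 ± 0.020% in Msh3-/- and 0.764 ± 0.033% in zQ175:Msh3-/- mice.

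**Figure D1:**
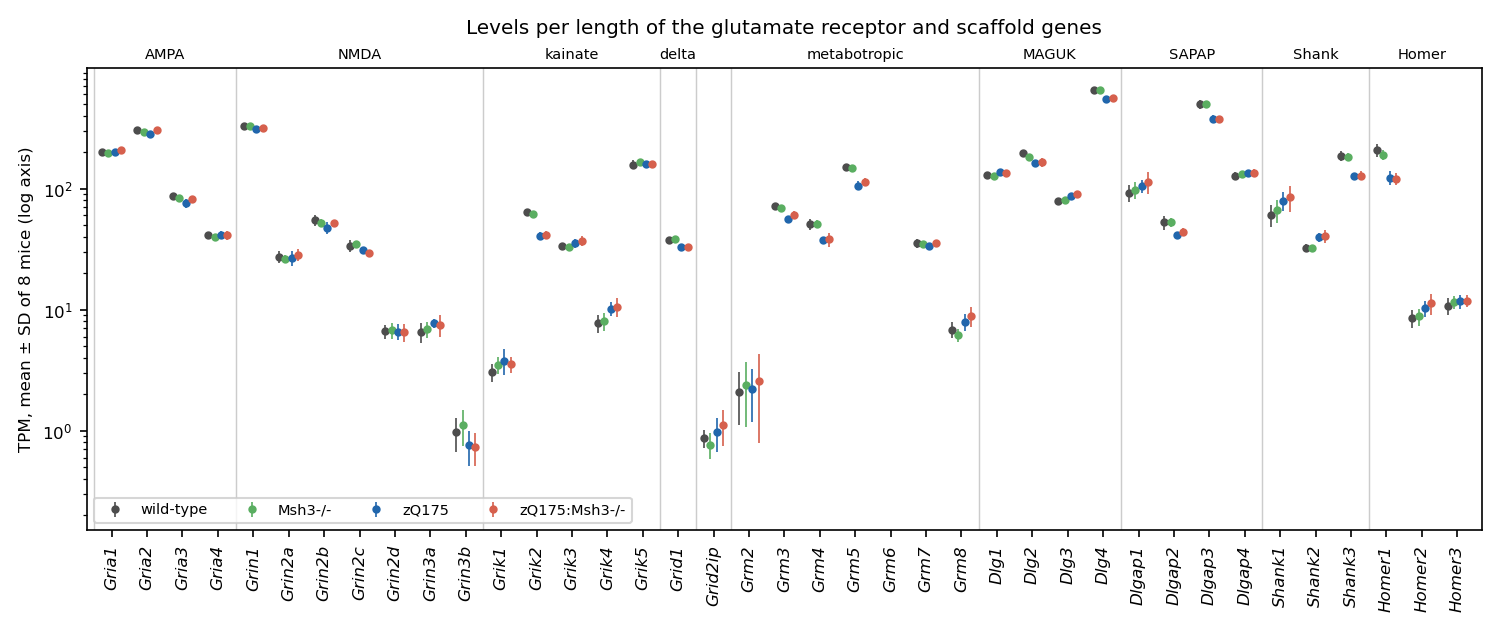
TPM of 39 of the 41 members on a log axis, grouped by family, as the mean of 8 mice per genotype with the SD as an error bar. Dlg4 and Dlgap3 stand highest in every genotype, Grin3b and Grid2ip sit near 1 TPM, and Grm6 falls below the axis.

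The effect of the zQ175 allele was measured in mice with Msh3, as zQ175 against wild-type, and in mice without it, as zQ175:Msh3-/- against Msh3-/-. No mouse enters both. A gene is called here when its adjusted p in edgeR's quasi-likelihood test is under 0.05 and its fold change is at least 1.2, or 0.263 on the log2 scale. With Msh3 present, 10 of the 40 tested members were called lower, beside 6.89% of all 16610 tested genes, and 1 was called higher, beside 4.7%. Without Msh3, 11 members were called lower, beside 5.96% of all genes, and 4 higher, beside 4.68%. Of the lowered members, 9 were called in both comparisons, which is 90.0% of the first list and 81.8% of the second, beside 67.4% and 77.9% for the 771 genes lowered in both. Among them are Homer1, Shank3, Grik2, Grm5, Grm4, Dlgap3, Dlgap2 and Dlg4. The members' median log2 fold change was -0.09 with Msh3 and -0.05 without it, beside 0.01 for all genes in each comparison. Under limma on TPM the second median was -0.00 at log2(TPM + 0.1), 0.01 at log2(TPM + 1) and -0.02 without a filter. The median of all genes moved up with it, to 0.087, 0.0621 and 0.0631. In the same fits the first median was -0.03, -0.03 and -0.01, beside 0.0674, 0.0485 and 0.0424 for all genes. The members' median thus stayed below that of all genes in both comparisons, a difference that was not tested. From edgeR, 16 of the 40 members with Msh3 and 17 without it had positive log2 fold changes.

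The background was also read above a floor of abundance, which does not match members and other genes within it. Among the 10141 genes with a mean of at least 10 CPM, 6.84% were called lower and 3.42% higher with Msh3 present, where 10 of 35 such members were lower. Without Msh3 the shares were 6.03% and 2.92%, and again 10 such members were lower. Single mice show the same contrast. In 12 of the 40 members every zQ175 mouse was below every wild-type mouse, beside 4.6% of all genes, and in 11 every zQ175:Msh3-/- mouse was below every Msh3-/- mouse, beside 3.64%. In 0 members did the groups part in the other direction, beside 2.02% and 1.75% of all genes. A count of 0 of 40 is near these shares. Where groups of 8 do not overlap, the exact two-sided permutation p is 0.000155, the smallest that 12870 arrangements allow. The split of directions over all genes differed between edgeR on counts, with 16610 genes tested, and limma on TPM, with 22274. Tool, scale and filter change together here, and which of them moved the split was not tested. With Msh3 present, 1144 genes were lower and 781 higher from counts, but 881 lower and 1316 higher by limma on log2(TPM + 0.1), which called 9 members lower and 2 higher. Without Msh3, 990 were lower and 778 higher from counts, but 699 lower and 1523 higher by limma, which called 7 members lower and 4 higher. A threshold of 1.5-fold leaves 3 lowered members in each comparison, beside 2.16% and 1.81% of all genes, Homer1, Grik2 and Shank3 with Msh3 and Homer1, Shank3 and Grin3b without it. By edgeR 0 raised members reached 1.5-fold, beside 1.08% and 1.22% of all genes called higher at that fold. That count is near these shares too. At an unadjusted p under 0.05 in either direction edgeR had 23 and 24 members, beside 6063 and 5803 of the 16610 genes. DESeq2 called 1 and 3 raised members at 1.2-fold, beside 4.57% and 4.52% of all genes.

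**Figure D2:**
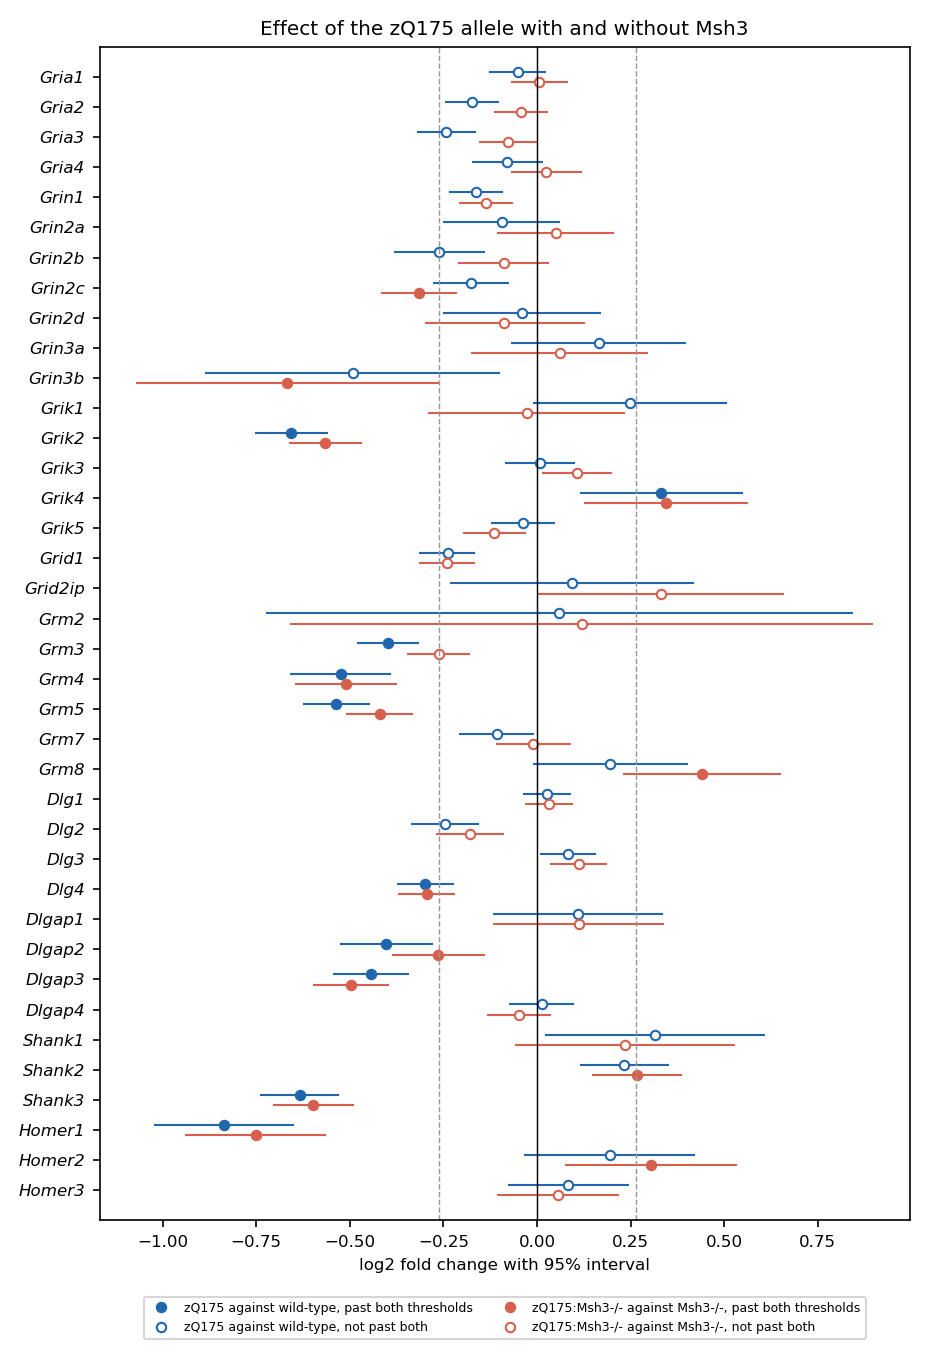
Log2 fold change of 38 of the 40 tested members with its 95% interval, for zQ175 against wild-type in blue and for zQ175:Msh3-/- against Msh3-/- in red. Filled points passed both thresholds, dashed lines mark 1.2-fold, and the filled points lie mostly on the lower side, among metabotropic receptors and scaffolds.

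The 4 AMPA subunit genes, Gria1 to Gria4, encode the tetramer that carries fast transmission. By edgeR, DESeq2 or limma 0 of them were called in either comparison. Of all genes, edgeR called 6.89% lower and 4.7% higher with Msh3 and 5.96% and 4.68% without it. A count of 0 of 4 is near these shares. At an unadjusted p under 0.05 from edgeR there were 2 with Msh3 present, Gria2 and Gria3, beside 6063 of the 16610 genes. Without Msh3 there were 0, beside 5803 genes. Gria3 came nearest. It had 179, 189 and 194 CPM in the lowest, median and highest wild-type mouse and 148, 157 and 178 in zQ175 mice. The groups did not overlap, though the highest zQ175 mouse came close to the lowest wild-type mouse. Its log2 fold change was -0.24 (SE 0.0385, adjusted p = 6.99e-06), short of 1.2-fold. It passed without zQ175 F2, at -0.27, and in males alone, at -0.29 (adjusted p = 0.00162). Without Msh3, Gria3 had 165, 179 and 191 CPM in Msh3-/- and 153, 170 and 186 in zQ175:Msh3-/- mice. These ranges overlap widely, and the log2 fold change was -0.08 (95% interval -0.16 to 0.00). Gria2, whose subunit blocks calcium entry through the channel, had a log2 fold change of -0.17 (95% interval -0.25 to -0.10) with Msh3 and -0.04 (-0.12 to 0.03) without it. For Gria1 the interval ran from -0.13 to 0.02 with Msh3 and from -0.07 to 0.08 without it, so a change of 1.2-fold lies outside both.

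Of the 7 NMDA subunit genes, 0 were called with Msh3 present by edgeR, beside 6.89% of all genes lower and 4.7% higher. DESeq2 called 1 and limma 0, and 4 had an unadjusted p under 0.05 from edgeR, beside 6063 of the 16610 genes. Without Msh3, 2 were called lower, Grin2c and Grin3b, beside 5.96% of all genes. Grin2c (ENSMUSG00000020734) encodes a regulatory subunit best known from cerebellum and astrocytes. It had 55.4, 65.2 and 75.9 CPM (lowest, median and highest mouse, as in the values that follow) in wild-type and 51.9, 58.3 and 61.3 in zQ175 mice. All but 1 zQ175 mouse lay within the wild-type range, and the log2 fold change was -0.18 (SE 0.0497, adjusted p = 0.0069), short of 1.2-fold. In males alone it was -0.28 (adjusted p = 0.00349) and called, and over all settings it ranged from -0.28 to -0.06. Msh3-/- mice had 61.4, 67.9 and 73.3 CPM and zQ175:Msh3-/- mice 51.6, 53.8 and 59.9. Here the groups were apart, with a log2 fold change of -0.31 (SE 0.0501, adjusted p = 8.85e-06). By limma on log2(TPM + 0.1) it was -0.25 and no longer past the fold threshold. The difference between the zQ175 effects in the 2 Msh3 genotypes was -0.14 (adjusted p = 0.999), so they are not shown to differ.

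Grin3b (ENSMUSG00000035745) encodes a glycine-binding subunit and is nearly silent in striatum. It had 0.889, 1.18 and 1.54 CPM in wild-type, 0.551, 0.842 and 1.12 in zQ175, 0.865, 1.1 and 1.74 in Msh3-/- and 0.533, 0.763 and 1.11 in zQ175:Msh3-/- mice. The ranges overlap in both comparisons, with 4 and 6 zQ175-allele mice below all of their controls. The log2 fold change was -0.49 (SE 0.194, adjusted p = 0.0542) with Msh3 and -0.67 (SE 0.199, adjusted p = 0.0113) without it, and their difference was -0.17 (adjusted p = 0.999). With Msh3 present, Grin3b passed without wild-type M1 at -0.55, wild-type M3 at -0.54, zQ175 M1 at -0.54, zQ175 F4 at -0.55 or zQ175 M4 at -0.57. Without Msh3 it was not called by limma on log2(TPM + 0.1), with -0.53 (adjusted p = 0.0735), or in females alone, with -0.65 (adjusted p = 0.27). Its exons overlap those of Tmem259, a gene on the opposite strand at 124 CPM, and the strand setting was not given. Reads of that neighbour may therefore be among these few, and their part in the result was not tested.

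Grin2b, the subunit that prevails over Grin2a in striatal TPM, was just short of the fold threshold. It had 504, 551 and 675 CPM in wild-type and 407, 455 and 533 in zQ175 mice. The ranges overlap, with 5 zQ175 mice below all wild-type mice, and the log2 fold change was -0.26 (SE 0.0595, adjusted p = 0.000991). It passed with DESeq2 (adjusted p = 0.000159), with RLE size factors and without a filter on low counts, in females alone, at -0.28 (adjusted p = 0.0174), and when any 1 of 7 mice was left out. These are wild-type F1 at -0.28, wild-type M1 at -0.27, wild-type M2 at -0.28, wild-type M3 at -0.28, zQ175 F2 at -0.29, zQ175 F4 at -0.28 and zQ175 M3 at -0.29. Without Msh3 the log2 fold change of Grin2b was -0.09 (95% interval -0.21 to 0.03). Grin1 had -0.16 with Msh3 and -0.14 without it, with intervals that reach down to -0.24 and -0.21 and so exclude a 1.2-fold change. Grin2a, Grin2d and Grin3a had log2 fold changes between -0.09 and 0.17 in the 2 comparisons, with adjusted p of 0.319 or more.

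Kainate receptors combine Grik1 to Grik3, which form channels alone, with the high-affinity subunits Grik4 and Grik5. Grik2 (ENSMUSG00000056073), the gene of GluK2, had the smallest adjusted p of all members with Msh3 present. It had 117, 126 and 146 CPM in wild-type and 76.4, 80.3 and 91.1 in zQ175 mice. Every zQ175 mouse was below every wild-type mouse by a wide gap, and the log2 fold change was -0.66 (SE 0.048, adjusted p = 2.86e-13). Without Msh3, Grik2 had 112, 122 and 137 CPM in Msh3-/- and 73.7, 82.0 and 91.8 in zQ175:Msh3-/- mice. The groups were apart there too, with a log2 fold change of -0.56 (SE 0.0482, adjusted p = 1.87e-11). Grik4 (ENSMUSG00000032017) went the other way. It had 10.6, 13.1 and 17.4 CPM in wild-type, 14.5, 17.1 and 19.5 in zQ175, 9.75, 14.5 and 16.2 in Msh3-/- and 14.9, 16.0 and 24.2 in zQ175:Msh3-/- mice. Only 3 zQ175 and 4 zQ175:Msh3-/- mice were above all of their controls. Grik4 had a log2 fold change of 0.33 (SE 0.107, adjusted p = 0.019) with Msh3 and 0.34 (SE 0.108, adjusted p = 0.0174) without it. Without zQ175:Msh3-/- M1, the mouse at 24.2 CPM, the second was 0.26 (adjusted p = 0.0547). Without the filter on low counts both missed the threshold, with adjusted p of 0.0515 and 0.0503. In males alone the 2 values were 0.20 and 0.47, and in females alone the second was 0.23, none of these 3 called.

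Grik5, the most abundant kainate subunit by TPM, had log2 fold changes of -0.04 (95% interval -0.12 to 0.05) with Msh3 and -0.11 (-0.20 to -0.03) without it. Grik3 had 0.01 and 0.11, and the sparse Grik1 0.25 and -0.03, none of them called. The delta receptors bind glycine and serine rather than glutamate and organize synapses from the postsynaptic side. Grid1 had 78.0, 90.6 and 94.3 CPM in wild-type and 70.1, 76.6 and 80.0 in zQ175 mice. The overlap comes from wild-type M3, the mouse at 78.0 CPM, while the other wild-type mice were at 88.2 or more. The log2 fold change of Grid1 was -0.24 (SE 0.0367, adjusted p = 3.87e-06), and it passed the threshold without that mouse, at -0.27, and in females alone, at -0.28 (adjusted p = 0.000398). Without Msh3, Grid1 had 87.3, 90.2 and 97.3 CPM in Msh3-/- and 69.5, 77.7 and 83.1 in zQ175:Msh3-/- mice, with no overlap. There the log2 fold change was -0.24 (SE 0.0369, adjusted p = 4.7e-06), again short of 1.2-fold. Grid2ip, at about 1 CPM, had 0.09 and 0.33 with adjusted p of 0.752 and 0.135.

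Metabotropic receptors signal over a longer time than the channels, and those of group I couple to phospholipase C and bind Homer. Grm5 (ENSMUSG00000049583), the gene of mGluR5 in this group, had 396, 414 and 473 CPM in wild-type and 259, 289 and 338 in zQ175 mice. The groups were far apart, with a log2 fold change of -0.54 (SE 0.0437, adjusted p = 4.41e-12). Without Msh3, Grm5 had 388, 416 and 448 CPM in Msh3-/- and 279, 302 and 335 in zQ175:Msh3-/- mice. They were apart as well, and the log2 fold change was -0.42 (SE 0.0437, adjusted p = 2.03e-09). The zQ175 effect on Grm5 was smaller without Msh3 by 0.12, with an adjusted p of 0.999 in the test of that difference.

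Group II lowers cAMP and consists of Grm2 and Grm3, the latter also known from astrocytes. Grm3 (ENSMUSG00000003974) had 89.9, 93.3 and 110 CPM in wild-type and 68.2, 71.7 and 76.8 in zQ175 mice. No zQ175 mouse reached the wild-type range, and the log2 fold change was -0.40 (SE 0.0411, adjusted p = 1.23e-09). Without Msh3, Grm3 had 85.9, 90.6 and 103 CPM in Msh3-/- and 71.8, 74.6 and 84.7 in zQ175:Msh3-/- mice. These groups did not overlap either, but the log2 fold change of -0.26 (SE 0.0412, adjusted p = 7.21e-06) lay just under the fold threshold. It passed with DESeq2, at -0.27, with RLE size factors and with either other filter on low counts, in males alone, at -0.28, and without any 1 of 6 mice, namely Msh3-/- F1 at -0.27, Msh3-/- F3 at -0.28, Msh3-/- M1 at -0.27, Msh3-/- M4 at -0.27, zQ175:Msh3-/- F3 at -0.28 and zQ175:Msh3-/- M1 at -0.28. The difference between the zQ175 effects was 0.14 (unadjusted p = 0.0247 and adjusted p = 0.999 from edgeR). Grm2 scattered from 1.48 to 9.56 CPM among zQ175:Msh3-/- mice, and its intervals of -0.72 to 0.84 with Msh3 and -0.66 to 0.90 without it allow changes of 1.5-fold either way.

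Group III, found mostly on axon terminals, consists of Grm4, Grm6, Grm7 and Grm8. Grm4 (ENSMUSG00000063239) had 80.5, 99.3 and 109 CPM in wild-type and 61.6, 67.9 and 76.8 in zQ175 mice. The groups were apart, with a log2 fold change of -0.52 (SE 0.0667, adjusted p = 2.27e-07). Without Msh3, Grm4 had 91.3, 95.8 and 111 CPM in Msh3-/- and 61.8, 66.4 and 86.8 in zQ175:Msh3-/- mice. No overlap was seen here either, and the log2 fold change was -0.51 (SE 0.067, adjusted p = 5.15e-07). Grm8 (ENSMUSG00000024211) had 8.1, 10.1 and 12.1 CPM in wild-type and 9.42, 11.1 and 13.6 in zQ175 mice. Most of these values are shared, and the log2 fold change of 0.20 (SE 0.102, adjusted p = 0.163) was not called and ranged over the settings from -0.00, in males alone, to 0.41. Without Msh3, Grm8 had 7.26, 8.75 and 11.5 CPM in Msh3-/- and 8.76, 12.2 and 15.1 in zQ175:Msh3-/- mice, with 5 of the latter above all of the former. This was called higher, with a log2 fold change of 0.44 (SE 0.104, adjusted p = 0.00158), though not in females alone, where it was 0.20 (adjusted p = 0.482). The 2 zQ175 effects on Grm8 differed by 0.24 (adjusted p = 0.999). Grm7 had -0.11 with Msh3 and -0.01 without it, neither called.

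The guanylate kinases of the Dlg family bind NMDA receptor tails and stargazin-like proteins through PDZ domains. Dlg4 (ENSMUSG00000020886) had 796, 880 and 933 CPM in wild-type and 656, 702 and 770 in zQ175 mice. All zQ175 mice were below all wild-type mice, and the log2 fold change was -0.30 (SE 0.0374, adjusted p = 9.05e-08). Without Msh3, Dlg4 had 826, 885 and 924 CPM in Msh3-/- and 659, 715 and 767 in zQ175:Msh3-/- mice. The separation was again complete, with a log2 fold change of -0.29 (SE 0.0374, adjusted p = 1.45e-07). Both are only slightly past the fold threshold, and by limma on log2(TPM + 0.1) both were -0.24 and not past it. Without Msh3 it was also short of it in females alone, at -0.25. Dlg2 (ENSMUSG00000052572), the gene of PSD-93, had 484, 506 and 561 CPM in wild-type and 393, 429 and 467 in zQ175 mice, without overlap. Its log2 fold change of -0.25 (SE 0.0448, adjusted p = 5.68e-05) was short of 1.2-fold, and without zQ175 F4 it was -0.27 and passed. Without Msh3 it was -0.18 (SE 0.0449, adjusted p = 0.00275), with 425, 491 and 515 CPM in Msh3-/- and 362, 428 and 455 in zQ175:Msh3-/- mice, which overlap. Dlg1 and Dlg3 had log2 fold changes from 0.03 to 0.11, and the interval that reached furthest ended at 0.19.

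SAPAP proteins bridge the guanylate kinases to Shank. Dlgap3 (ENSMUSG00000042388), the SAPAP gene with the highest TPM in striatum, had 718, 822 and 939 CPM in wild-type and 550, 587 and 704 in zQ175 mice. The highest zQ175 mouse stayed under the lowest wild-type mouse, and the log2 fold change was -0.44 (SE 0.05, adjusted p = 9.18e-09). Without Msh3, Dlgap3 had 766, 819 and 914 CPM in Msh3-/- and 522, 584 and 625 in zQ175:Msh3-/- mice. The gap was wider there, with a log2 fold change of -0.50 (SE 0.0501, adjusted p = 9.88e-10). Dlgap2 (ENSMUSG00000047495) had 72.0, 84.6 and 103 CPM in wild-type and 59.4, 64.2 and 69.0 in zQ175 mice, again apart. Its log2 fold change was -0.40 (SE 0.0611, adjusted p = 4.37e-06). Without Msh3, Dlgap2 had 71.1, 83.3 and 97.1 CPM in Msh3-/- and 62.0, 68.6 and 77.2 in zQ175:Msh3-/- mice, where 6 of 8 were below all Msh3-/- mice. The log2 fold change of -0.26 (SE 0.0613, adjusted p = 0.00147) was barely past the fold threshold, and by limma on log2(TPM + 0.1) it was -0.25 and short of it. It was also short with only the groups compared, at -0.26, and without any 1 of 9 mice, namely Msh3-/- F1 at -0.26, Msh3-/- M2 at -0.23, Msh3-/- M3 at -0.26, Msh3-/- M4 at -0.26, zQ175:Msh3-/- F1 at -0.26, zQ175:Msh3-/- F2 at -0.24, zQ175:Msh3-/- F3 at -0.26, zQ175:Msh3-/- M4 at -0.26 and zQ175:Msh3-/- M5 at -0.26. Dlgap1 had 0.11 in both comparisons (upper ends 0.34), and Dlgap4 0.01 and -0.05 (interval ends -0.13 to 0.10).

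Shank proteins are the deep layer of the postsynaptic density. Shank3 (ENSMUSG00000022623) had 462, 532 and 582 CPM in wild-type and 305, 327 and 377 in zQ175 mice. The groups were far apart, and the log2 fold change was -0.63 (SE 0.0526, adjusted p = 6.82e-12). Without Msh3, Shank3 had 468, 515 and 574 CPM in Msh3-/- and 297, 341 and 378 in zQ175:Msh3-/- mice. They were as far apart, with a log2 fold change of -0.60 (SE 0.0526, adjusted p = 4.33e-11). Its paralogs did not follow. Shank2 (ENSMUSG00000037541) had 99.0, 104 and 116 CPM in wild-type and 111, 123 and 137 in zQ175 mice, with 7 of the latter above all wild-type mice. The log2 fold change of 0.23 (SE 0.0587, adjusted p = 0.00279) was short of 1.2-fold, but past it in females alone, at 0.30, and by limma on log2(TPM + 0.1), at 0.29. Without Msh3, Shank2 had 97.0, 106 and 112 CPM in Msh3-/- and 98.1, 125 and 147 in zQ175:Msh3-/- mice, again with 7 above all controls. It was called higher by a narrow margin, with a log2 fold change of 0.27 (SE 0.059, adjusted p = 0.000905), and the 2 effects differed by 0.03 (adjusted p = 0.999). The call was lost with DESeq2, at 0.26, without a filter on low counts, at 0.26, in males alone, at 0.25, and without any 1 of 6 mice, namely Msh3-/- F2 at 0.25, Msh3-/- F3 at 0.25, Msh3-/- M2 at 0.26, zQ175:Msh3-/- F2 at 0.26, zQ175:Msh3-/- M1 at 0.23 and zQ175:Msh3-/- M5 at 0.23. Shank1 had 132, 194 and 238 CPM in wild-type and 182, 239 and 294 in zQ175 mice, a log2 fold change of 0.31 that missed the threshold (SE 0.144, adjusted p = 0.111). In females alone it was 0.57 (adjusted p = 0.0224) and called, and with the cortical marker term described below 0.15.

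Homer proteins link group I receptors to Shank and to calcium stores, and the short form of Homer1 is an activity-induced RNA that gene counts do not separate from the long forms. Homer1 (ENSMUSG00000007617) had 255, 317 and 387 CPM in wild-type and 137, 174 and 209 in zQ175 mice. No zQ175 mouse came near the wild-type range, and the log2 fold change of -0.84 (SE 0.0919, adjusted p = 2.54e-08) was the largest among the members. Without Msh3, Homer1 had 239, 286 and 323 CPM in Msh3-/- and 138, 169 and 204 in zQ175:Msh3-/- mice. The gap held there, with a log2 fold change of -0.75 (SE 0.0921, adjusted p = 2.46e-07). Homer1 lies on chromosome 13 from 93299635 to 93405129, and Msh3 ends at 92355003 on the same chromosome, so the 2 genes are closely linked. Between Msh3-/- and wild-type mice its log2 fold change was -0.13 (95% interval -0.32 to 0.05). Homer2 (ENSMUSG00000025813) had 20.5, 22.7 and 28.8 CPM in wild-type, 18.0, 28.5 and 31.4 in zQ175, 19.1, 23.0 and 27.3 in Msh3-/- and 21.3, 28.0 and 36.1 in zQ175:Msh3-/- mice. Ranges overlap in both comparisons. Homer2 had a log2 fold change of 0.19 (SE 0.112, adjusted p = 0.214) with Msh3 and 0.30 (SE 0.113, adjusted p = 0.0472) without it, where it was called, and the 2 differed by 0.11 (adjusted p = 0.999). With Msh3 it was called in females alone, at 0.39 (adjusted p = 0.0132), and ranged from 0.01 to 0.39 over the settings. The call without Msh3 was lost with sex as a term (adjusted p = 0.0509), with only the groups compared (adjusted p = 0.0581), without a filter on low counts (adjusted p = 0.113), by limma on log2(TPM + 0.1) without a filter (adjusted p = 0.0547), in males alone (adjusted p = 0.384), and without any 1 of 10 mice, namely Msh3-/- F2 at 0.29, Msh3-/- F3 at 0.28, Msh3-/- F4 at 0.32, Msh3-/- M1 at 0.29, Msh3-/- M2 at 0.27, Msh3-/- M4 at 0.32, zQ175:Msh3-/- F1 at 0.25, zQ175:Msh3-/- F2 at 0.29, zQ175:Msh3-/- M1 at 0.26 and zQ175:Msh3-/- M5 at 0.28. Homer3 had 0.08 and 0.06 (upper interval ends 0.24 and 0.22).

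**Figure D3:**
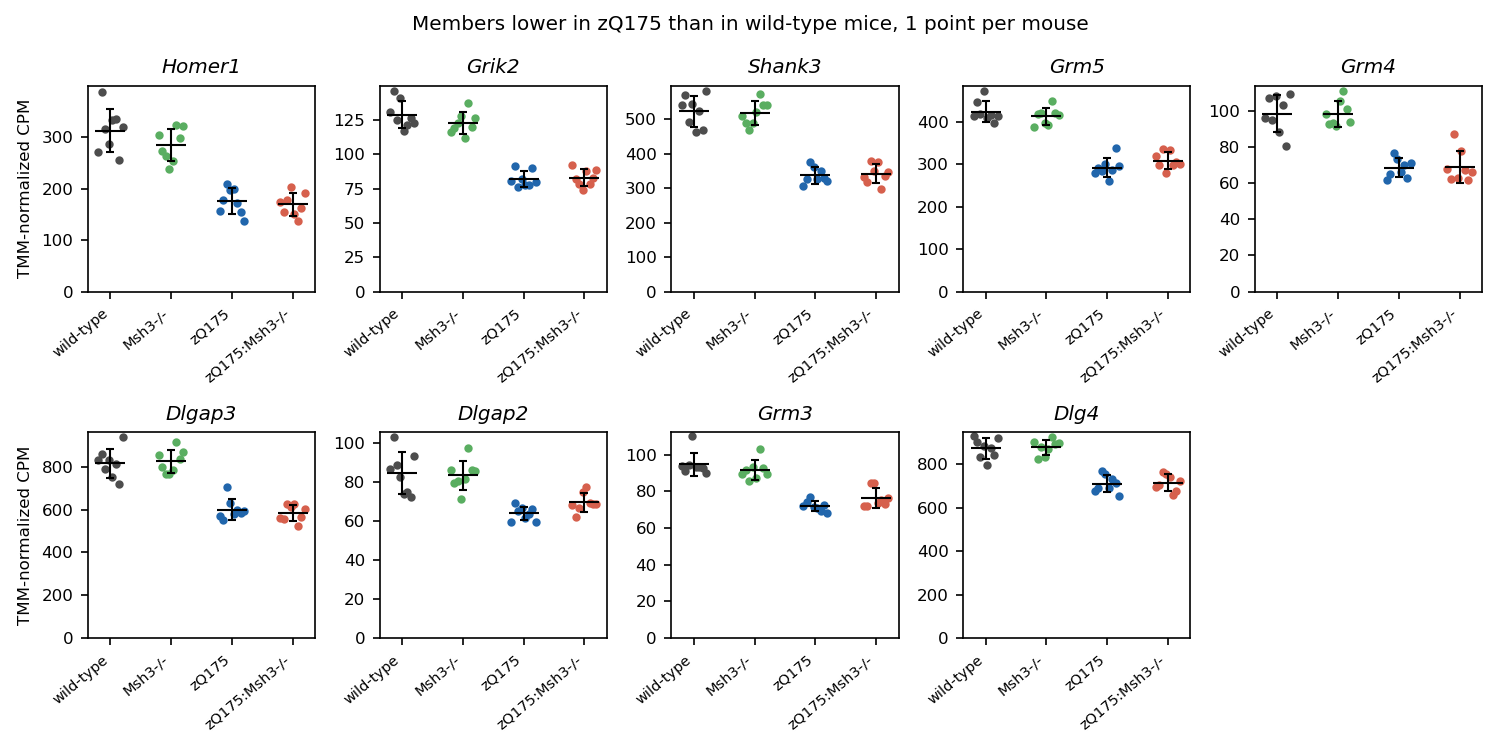
CPM per mouse of 9 of the 10 members called lower in zQ175 against wild-type mice, in 4 genotypes of 8 mice each, with the mean and SD. In each panel the zQ175 mice lie below all wild-type mice, and the zQ175:Msh3-/- mice lie with the zQ175 mice.

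Shank3 and Homer1 were the lowered scaffolds with the largest log2 fold changes. The 250 bases before a RefSeq transcription start of each are shown. These windows were picked among lowered members because they hold a motif marked below and touch no annotated exon on GRCm38.p6. The marked motifs are thus there by selection. G or C makes up 82.4% of the Shank3 window and 62.4% of the Homer1 window. Capitals mark, in Homer1, the cAMP response element core TGACG and, in Shank3, the early growth response element GCGNGGGCG or its reverse complement. Both are sites of factors that respond to synaptic activity, and both strands were searched. The Homer1 window is chr13:93303507-93303756 on the plus strand, inside the span of the annotated gene, and the Shank3 window chr15:89499358-89499607 on the plus strand. The Homer1 window holds 0 early growth response elements and the Shank3 window 0 cores, and a second Homer1 window, from 93307784, holds neither.
Homer1: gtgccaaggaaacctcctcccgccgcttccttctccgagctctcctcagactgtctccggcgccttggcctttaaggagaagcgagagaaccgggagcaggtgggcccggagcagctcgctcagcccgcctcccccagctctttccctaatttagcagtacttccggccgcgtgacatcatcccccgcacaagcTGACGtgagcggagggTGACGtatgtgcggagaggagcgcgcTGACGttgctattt
Shank3: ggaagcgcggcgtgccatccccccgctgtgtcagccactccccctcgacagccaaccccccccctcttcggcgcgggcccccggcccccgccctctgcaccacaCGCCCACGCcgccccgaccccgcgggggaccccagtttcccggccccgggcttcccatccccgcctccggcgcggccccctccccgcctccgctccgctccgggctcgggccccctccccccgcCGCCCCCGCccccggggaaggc

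The 3 cores in Homer1 begin 56, 40 and 14 bases before the start, and the 2 elements in Shank3 begin 146 and 22 bases before it. A match to letters is a description and does not show that a factor binds. Of 32851 promoter windows of the RefSeq annotation, 17.8% hold the core TGACG and 4.7% the early growth response element. Promoters of 27 of the 41 members could be matched, in 42 windows, of which 5 hold the core and 4 the early growth response element. The full cAMP response element TGACGTCA is in 0 of the 42 and in 1.55% of all windows. GC boxes (GGGCGG) are in 19 of the 42 and in 32.7% of all windows, CCAAT in 11 and 33.8%, and TATAAA in 4 and 12.4%. Among the 10 members lowered with Msh3 present, 6 were matched, of which 2 hold the core, 1 the early growth response element and 3 a GC box, with TATAAA and CCAAT in none. These are counts of genes, and of the 27025 genes with a window 19.8%, 5.33%, 35.4%, 14.3% and 37.5% hold them in at least 1 window.

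By role, 5 of 25 tested receptor genes were called lower and 1 higher with Msh3 present, beside 6.89% and 4.7% of all genes, and 6 lower and 2 higher without it, beside 5.96% and 4.68%. Among the 14 scaffold genes, 5 were lower and 0 higher with Msh3, where edgeR had 3 higher at an unadjusted p under 0.05, limma called 1, Shank2, and DESeq2 0, and 5 lower and 2 higher without it. Grid2ip is counted in neither role and was not called. Genes of the same family did not all move together. The following shares of the family's summed TPM are descriptions with no test. Shank3 made up 66.6 ± 4.13% of Shank TPM in wild-type and 51.6 ± 3.37% in zQ175 mice, and 65.2 ± 4.34% in Msh3-/- and 50.9 ± 4.96% in zQ175:Msh3-/- mice (SD, n = 8 here and below), while Shank1 went from 21.8 ± 3.9% in wild-type to 32.1 ± 3.38% in zQ175. Grik2 made up 23.9 ± 1.71% of kainate TPM in wild-type and 16.4 ± 1.08% in zQ175 mice, and no zQ175 mouse reached the lowest wild-type share. Homer1 went from 91.4 ± 1.53% of Homer TPM in wild-type to 84.7 ± 1.85% in zQ175, and Dlgap3 from 64.6 ± 2.22% of SAPAP TPM to 57.4 ± 2.4%. Shares that hardly moved include that of Gria2 in AMPA TPM, at 48.0 ± 1.0% and 47.3 ± 0.841%, and that of Grin1 in NMDA TPM, at 71.8 ± 1.79% and 72.0 ± 1.34%. The Homer sum itself was lower, at 226 ± 25.6 TPM in wild-type and 145 ± 16.5 TPM in zQ175 mice. AMPA TPM summed to 631 ± 19.4 in wild-type and 602 ± 21.6 in zQ175 mice, and to 616 ± 21.1 in Msh3-/- and 638 ± 23.6 in zQ175:Msh3-/- mice, with ranges that overlap.

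**Figure D4:**
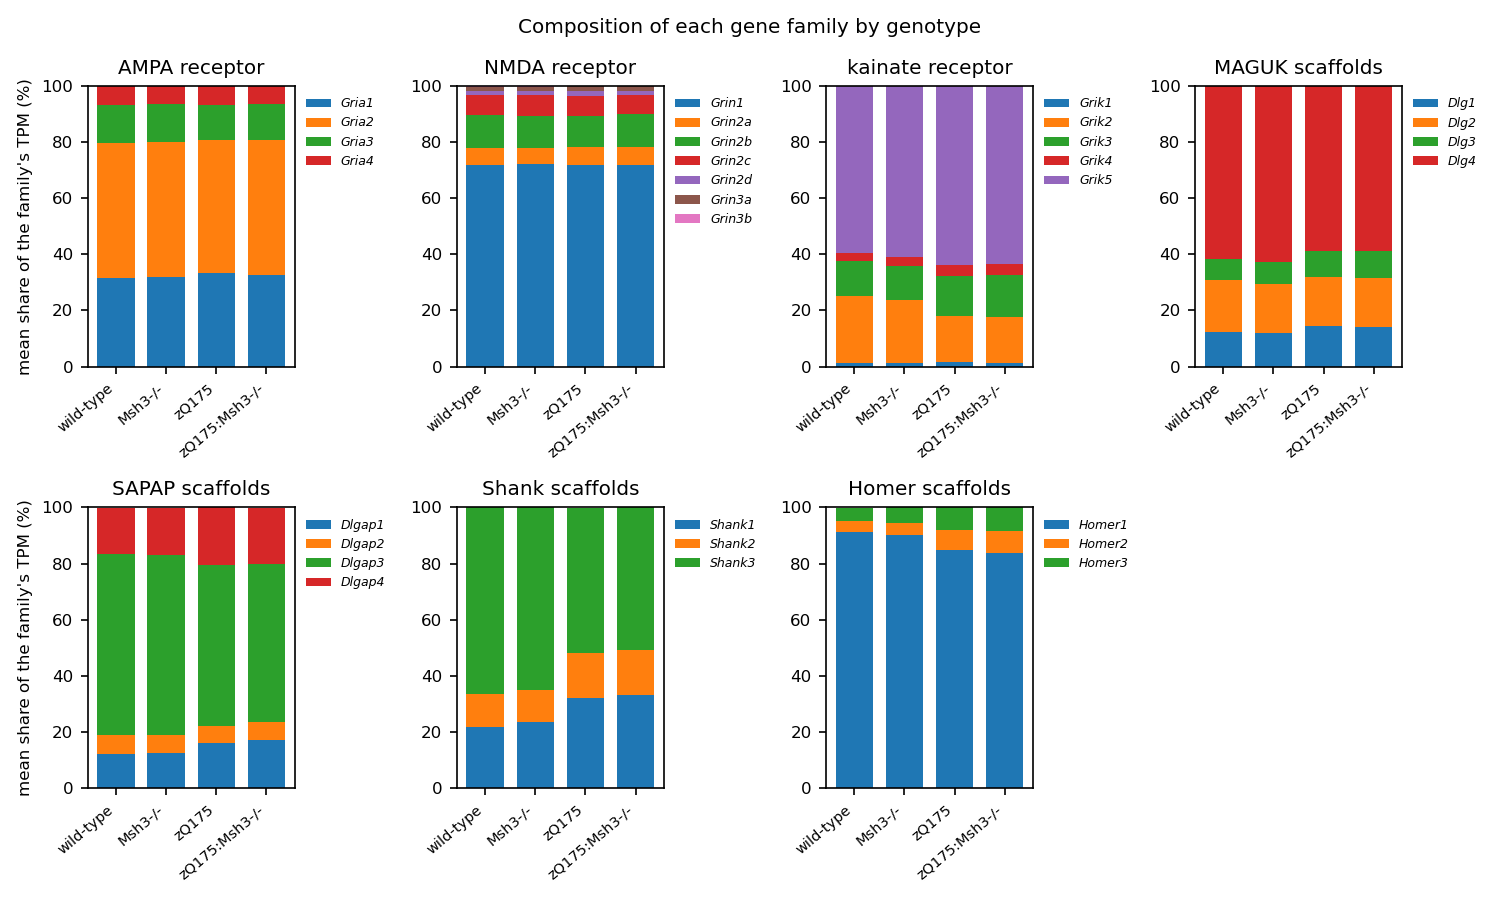
Stacked bars of the mean percent of summed TPM that each gene takes in 7 families, in the 4 genotypes of 8 mice each. The shares of Shank3, Grik2, Homer1 and Dlgap3 are smaller in the 2 genotypes with the zQ175 allele, and the AMPA and NMDA bars look alike in all 4.

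The loss of Msh3 was compared on both Htt genotypes, which asks whether it changes what the zQ175 allele does to these genes. Between zQ175:Msh3-/- and zQ175 mice edgeR called 0 of 40 members, beside 0.00602% of all genes, with 2 at an unadjusted p under 0.05, beside 614 of the 16610 genes, and 0 called by DESeq2 or limma. The 2 are Gria3, with a log2 fold change of 0.10 (95% interval 0.02 to 0.18), and Grm3, with 0.09 (0.01 to 0.17). Between Msh3-/- and wild-type mice 0 members were called by edgeR, DESeq2 or limma, beside 0.00602%, and 0 had an unadjusted p under 0.05, beside 846 genes. The test of the difference between the 2 zQ175 effects called 0 members by any of the 3 tools, beside 0% of all genes, with 4 at an unadjusted p under 0.05, beside 737 genes. These are Gria3 at 0.17 (unadjusted p = 0.00443 from edgeR), Gria2 at 0.13, Grm3 at 0.14 and Grin2b at 0.17. The log2 fold changes of members ranged from -0.11 to 0.23 for Msh3 loss in zQ175 mice and from -0.16 to 0.17 in mice without the allele. The median reach of a 95% interval to either side was 0.102 and 0.101, and the interval stayed within 1.2-fold for 31 of 40 members in zQ175 mice and 30 in mice without the allele. For the sparse or variable members, such as Grm2, Grin3b and Shank1, it did not. For Homer1 the interval in zQ175 mice was -0.24 to 0.14, for Shank3 -0.09 to 0.13, for Grik2 -0.08 to 0.12 and for Grm5 -0.01 to 0.17. For Msh3 loss in zQ175 mice 11 of the 40 members were below 0, beside 48.3% of all genes, with medians of 0.0321 and 0.0026. In mice without the allele 24 were below 0, beside 50%, with medians of -0.0174 and -1e-04. For the difference of the zQ175 effects 11 were below 0, beside 48.5%, with medians of 0.0474 and 0.004. These small leans were not tested.

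In zQ175:Msh3-/- against wild-type mice, which shares mice with both zQ175 comparisons above, 13 members were called lower, beside 6.49% of all genes, and 2 higher, beside 5.5%. The lowered ones are the 10 of zQ175 mice and Grin2c at -0.27, Grin3b at -0.60 and Dlg2 at -0.26 (adjusted p = 2.04e-05). Raised were Grik4 at 0.37 (adjusted p = 0.0086) and Grm8 at 0.28 (adjusted p = 0.041). By limma on log2(TPM + 0.1) the counts were 7 lower and 5 higher, beside 3.38% and 7.69% of all genes. Short of a threshold there were Dlg2 at -0.24, Dlg4 at -0.22, Dlgap2 at -0.24, Grin2c at -0.18, Grin3b at -0.36 (adjusted p = 0.248) and Grm3 at -0.24, while Homer2 at 0.40, Shank1 at 0.48 and Shank2 at 0.31 passed. In the same fit the members' median log2 fold change of -0.05 became 0.01, while the median of all genes went from 0.0144 to 0.0886. Dlg2 was not called with sex as a term or in either sex alone, each at -0.26, or without wild-type F2 at -0.24, wild-type M4 at -0.26, zQ175:Msh3-/- M2 at -0.26, zQ175:Msh3-/- M3 at -0.24 or zQ175:Msh3-/- M4 at -0.26. Grin2c was not called in females alone, at -0.23, or without wild-type F2 at -0.24, wild-type M2 at -0.26, wild-type M4 at -0.24, zQ175:Msh3-/- F2 at -0.26 or zQ175:Msh3-/- F3 at -0.26. Dlgap2, at -0.28 with all mice, was not called in males alone, at -0.13 (adjusted p = 0.238), or without wild-type F2 at -0.23, wild-type M4 at -0.26 or zQ175:Msh3-/- F2 at -0.26. The call of Grik4 was lost in males alone, at 0.28 (adjusted p = 0.303). That of Grm8 was lost in males alone, at 0.22, in females alone, at 0.30, with only the groups compared, at 0.28, and without a filter on low counts, at 0.27 (adjusted p = 0.0841). It was also lost without wild-type F1 at 0.25, F2 at 0.28, F3 at 0.27, F4 at 0.24 or M4 at 0.27, or without zQ175:Msh3-/- F2 at 0.23, M1 at 0.23, M2 at 0.28, M3 at 0.27 or M5 at 0.25. Grin3b kept its call without any 1 mouse, but not by limma on log2(TPM + 1), at -0.18, in males, at -0.33, in females, at -0.92 (adjusted p = 0.0661), or with the cortical term described below, at -0.39. Some genes were gained. In females alone Homer2 was called at 0.49 and Shank2 at 0.27. Shank1, at 0.37 (adjusted p = 0.0589), was called by DESeq2 (adjusted p = 0.0394) and without wild-type M1 at 0.41, wild-type M4 at 0.41, zQ175:Msh3-/- M2 at 0.41 or M3 at 0.43, Homer2 without wild-type M1 at 0.31, zQ175:Msh3-/- M2 at 0.31 or M3 at 0.32, and Shank2 without zQ175:Msh3-/- M3 at 0.29. The count of 2 raised members was thus 1 without wild-type F1, F2, F3 or F4 or zQ175:Msh3-/- M1, F2 or M5, beside 4.93% to 5.41% of all genes. It was 4 without wild-type M1 or zQ175:Msh3-/- M3, beside 5.84% and 5.62%.

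The raised members were read against markers of cortical glutamatergic neurons, since the cortex borders the dissected tissue. The 8 markers summed to 149 ± 88.5 TPM in wild-type and 232 ± 95.8 in zQ175 mice, and to 184 ± 114 in Msh3-/- and 294 ± 153 TPM in zQ175:Msh3-/- mice (SD, n = 8), from 34.0 TPM in zQ175 M4 to 568 in zQ175:Msh3-/- M1. Slc17a7 was the most abundant, and none of the 8 was under 1 TPM in every mouse. The groups overlap, with 3 of 8 zQ175 mice above all wild-type mice and 3 of 8 zQ175:Msh3-/- mice above all Msh3-/- mice. None of the 8 markers was called by edgeR in either of these comparisons (smallest adjusted p 0.164 and 0.117) and 1 was called higher in zQ175:Msh3-/- against wild-type mice, and their median log2 fold change was 0.58, 0.61 and 0.87 in the 3 comparisons. In a fit with the log2 of this sum as a term, chosen after its spread had been seen, 0 members were called higher with Msh3 and 1 without it, beside 4.64% and 4.55% of all genes. Grik4 was then at 0.23 (adjusted p = 0.0299) and 0.22 (adjusted p = 0.0473), Homer2 at 0.15 (adjusted p = 0.122) and Shank2 at 0.21 (adjusted p = 0.00316) without Msh3, all short of 1.2-fold. Only Grm8 kept its call, at 0.38 (adjusted p = 0.00606). The mean of the cortical sum was itself higher with the zQ175 allele, so the term and the allele are not separate in this fit. The part of cortical tissue in the raised members was not tested. Of the lowered members, Grin3b moved most with the term, from -0.67 to -0.51 (adjusted p = 0.0413) without Msh3. With Msh3 present 13 were called lower, beside 6.75% of all genes, the same 10 and Dlg2 at -0.27, Gria3 at -0.28 and Grin2b at -0.28. Without Msh3, 10 were called lower, beside 5.68%, and Dlgap2 at -0.25 was lost. Of the members not called, Grm2 went from 0.06 to -0.39 with Msh3 and from 0.12 to -0.46 without it, and Dlgap1 from 0.11 to -0.03 and -0.05. Homer1 stood at -0.87 and -0.78 and Shank3 at -0.62 and -0.58 in this fit. The count of 4 raised members without Msh3 was also 1 without zQ175:Msh3-/- M1, beside 4.44% of all genes. It was 2 without Msh3-/- M2, F2 or F3 or without zQ175:Msh3-/- F2 or M5, beside 3.96% to 4.59%.

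**Figure D5:**
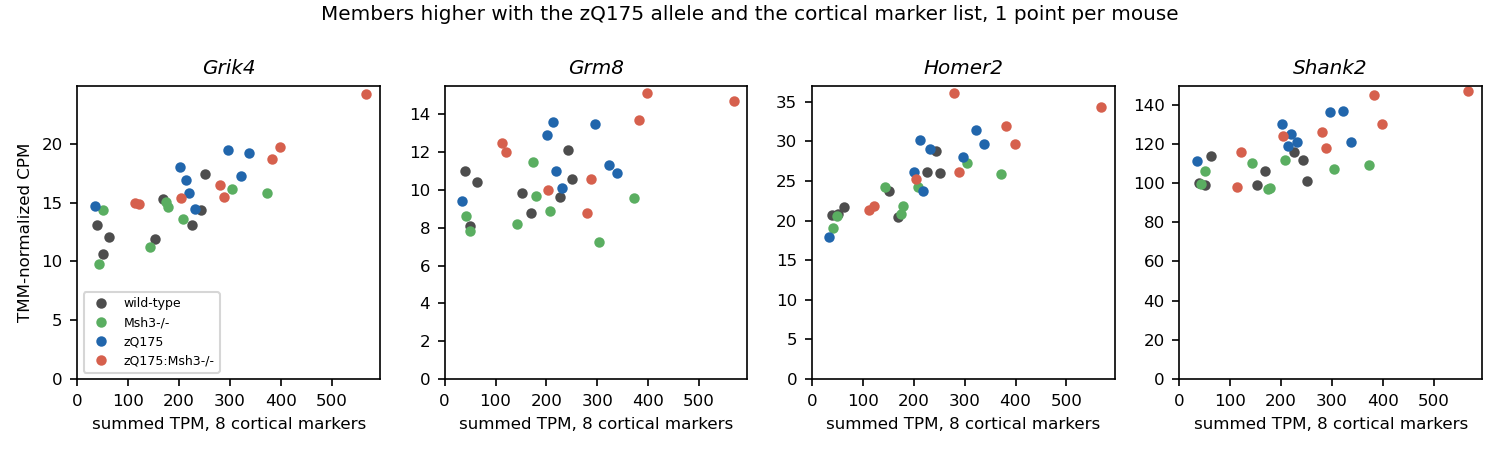
CPM of Grik4, Grm8, Homer2 and Shank2 in each of 32 mice against the summed TPM of 8 cortical markers, coloured by genotype. Mice with a larger cortical sum tend to have more of Grik4, Homer2 and Shank2, and zQ175:Msh3-/- M1, at 568 TPM, is furthest right and has 24.2 CPM of Grik4.

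Markers of other cells were read in the same way, since in whole tissue fewer cells of a type and less RNA per cell cannot be told apart. The 13 spiny projection neuron markers summed to 9080 ± 633 TPM in wild-type and 5280 ± 377 in zQ175 mice, and to 8980 ± 602 in Msh3-/- and 5370 ± 509 in zQ175:Msh3-/- mice (SD, n = 8), and 12 of the 13 were called lower in each zQ175 comparison, all but Tac1. Their median log2 fold change was -0.81 with Msh3 and -0.77 without it, beyond that of every lowered member but Homer1 with Msh3, and their part in the members' result was not tested. Of the 6 cholinergic interneuron markers, 2 were lower with Msh3 and 5 without it, with sums of 84.4, 82.7, 72.6 and 67.6 TPM (wild-type first, then Msh3-/-, zQ175 and the double genotype, as in the sums that follow) and Chat the most abundant. GABAergic interneuron markers summed to 783, 829, 787 and 775 TPM, mostly Sst, with 0 and 1 of 8 lower. Astrocyte markers summed to 2110, 2100, 1990 and 1980 TPM, led by Aldoc, with 1 of 8 lower and 1 higher with Msh3 and 0 called without it by edgeR. Oligodendrocyte markers, led by Mbp, summed to 10000, 10100, 9760 and 9640 TPM, with 2 of 8 lower with Msh3. Microglial markers summed to 432, 430, 414 and 408 TPM, and oligodendrocyte precursor markers to 96.3, 96.2, 98.7 and 95.5 TPM, led by Olig2, none of them called. Thalamic markers summed to 45.7, 49.9, 44.3 and 43.7 TPM, led by Rora, with 1 of 6 lower in each comparison. Endothelial markers summed to 176, 165, 155 and 153 TPM, led by Cldn5, with 2 of 6 lower with Msh3. Choroid plexus markers, nearly all Ttr, varied from 51.8 to 5730 TPM between mice, with at least 1 mouse at 2880 TPM or more in every genotype, and none was called.

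Proteins that work with the members were taken from 6 lists, whose counts stand beside the shares of all genes given above, 6.89% lower and 4.7% higher with Msh3 and 5.96% and 4.68% without it. Of 16 AMPA receptor auxiliary subunits, 4 were called lower with Msh3 and 3 without it. Gsg1l, which slows recovery of AMPA receptors from desensitization, had 161, 174 and 190 CPM in wild-type and 89.5, 102 and 104 in zQ175 mice, without overlap. Its log2 fold change was -0.82 (SE 0.0427, adjusted p = 5.04e-17) with Msh3 and -0.68 without it. Cacng4, a stargazin relative, had -0.51 and -0.48, and Shisa9 -0.35 and -0.23. The other 12 and 13 of these subunits were not called, and no test compared the list with the AMPA channel genes. Of 8 partners of kainate and delta receptors, 2 were lower with Msh3 and 1 without it. Neto2, an auxiliary subunit of kainate receptors, had 164, 184 and 204 CPM in wild-type, 82.7, 87.1 and 91.0 in zQ175, 132, 176 and 189 in Msh3-/- and 80.3, 85.9 and 93.0 in zQ175:Msh3-/- mice. It was thus well below its controls in every mouse, with log2 fold changes of -1.09 (SE 0.0552, adjusted p = 5.85e-17) and -0.95 (SE 0.0554, adjusted p = 3.06e-15), beyond those of its partner Grik2. Neto1 had -0.33 and -0.25.

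Of 29 other scaffolds and enzymes of the postsynaptic density, 9 were lower with Msh3 and 7 without it. Ppp1r9b, the gene of spinophilin, which holds a phosphatase in the spine, had 1350, 1450 and 1570 CPM in wild-type and 951, 1060 and 1120 in zQ175 mice. These ranges were apart, with a log2 fold change of -0.48 (SE 0.0449, adjusted p = 1.2e-10) with Msh3 and the same -0.48 without it. Its relative Ppp1r9a had -0.46 and -0.33, and the kinase gene Camk2b -0.33 in both. Signalling downstream of group I receptors had the largest share, with 7 of 15 lower with Msh3 and 8 without it. Itpka, a kinase of inositol trisphosphate in spines, had 140, 147 and 163 CPM in wild-type and 98.5, 102 and 111 in zQ175 mice. The groups were apart, with log2 fold changes of -0.51 (SE 0.034, adjusted p = 2.71e-14) and, without Msh3, -0.58 (SE 0.0341, adjusted p = 1.97e-15). Prkcb had -0.62 and -0.51, and Plcb1, the phospholipase to which these receptors couple, -0.60 and -0.43. Of 20 adhesion proteins, 2 were lower and 2 higher with Msh3, and 1 lower and 1 higher without it. Lrrtm1 had -0.40 in both, Nlgn1 -0.34 and -0.25, and Lrfn2 was raised with 0.61 and 0.60. Among 15 genes of glutamate release and clearance, 1 was lower and 1 higher in each comparison, the lowered ones being Slc1a2 with Msh3 and Glul, at -0.28, without it. The astrocyte transporter gene Slc1a2 had -0.30 with Msh3 and -0.20 without it, short of 1.2-fold, and Slc1a6, at 2.11 to 3.69 CPM in wild-type mice, had 0.49 and 0.41. In all 6 lists edgeR called no gene between zQ175:Msh3-/- and zQ175 mice, between Msh3-/- and wild-type mice, or in the difference of the zQ175 effects.

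Many members are long genes, a trait that the rule did not use, with a median of 218 kb and 65.0% above 100 kb, beside 25.5 kb and 15.8% for the 14395 tested protein-coding genes. The 10 members lowered with Msh3 present had a median of 173 kb and 60.0% above 100 kb, and the other 30 tested members 218 kb and 66.7%. The part of length in the result was not tested. Some members share exon bases with other genes. Where these lie on the opposite strand, the effect on the counts is unknown because the strand setting is not stated. Besides Grin3b, exons of Homer3 overlap Ddx49 at 25.7 CPM, those of Grin1 overlap Grin1os at 10.1 CPM and those of Grin2d overlap Gm45441 at 4.01 CPM. Exons of Dlg2 overlap Gm45159 at 3.4 CPM, which is on the same strand, and its effect was not tested. For Grm7, Shank1 and Shank3 the overlapping gene is at 2.65, 1.52 and 1.19 CPM. In a model of genotype and sex, the zQ175 effect, averaged over the Msh3 genotypes, differed between males and females in 0 members by edgeR. At the same adjusted p under 0.05 it also differed in 0 of all genes. Among members 0 had an unadjusted p under 0.05 from edgeR, and the smallest adjusted p was 0.912. DESeq2 and limma were not run for this test.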

How the data were processed

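The authors deposited gene counts, not normalized, and a length-normalized table of the same 32 mice. That table is named FPKM, but each column sums to 1000000, so the deposited values were read as TPM. No column was left out. Reads were aligned to GRCm38.p6, and the strand setting is not given. Symbols came from GENCODE M21, which holds 54495 of the 54532 identifiers, and promoters from RefSeq.

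Counts were tested with edgeR 4.0.16 in R 4.3.3 (TMM, filter on low counts within groups, robust quasi-likelihood, 1 model of 4 genotypes, Benjamini-Hochberg over 16610 genes). Single genes were also compared by an exact two-sided permutation test. Alternatives used DESeq2 1.42.0, RLE size factors, other filters, sex as a term, a replicate block, only the groups compared, limma 3.58.1 with TPM at pseudocounts of 0.1 and 1, each sex alone, other fold thresholds, each mouse left out, and, chosen after seeing the data, the cortical marker level as a term. Summaries used Python 3.11.15, numpy 2.4.6, pandas 2.3.3 and matplotlib 3.10.9. Members, gene lists and markers were chosen with earlier results of these data known. From each gene list the text names up to 3 called genes with the smallest adjusted p. Each mouse is 1 replicate, and the share given for 3 reads covers counting error only, since replicate mice differed by more than that (chi-square over degrees of freedom 4.26 or more). Some single-gene results are not reported here.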

Additional observations from a re-analysis of the deposited data

Results flagged for a closer look

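In 10 of 232 sets of 8 mice, 160 of them over members, 1 mouse lay far from the others of its group by Dixon's ratio of gap to range. Chance gives such a mouse in about 1 of 20 groups. The sets are the 4 genotypes for each gene and for the totals. Among members, Grin2c was at 59.9 CPM in zQ175:Msh3-/- M5 and at 51.6 to 54.7 in the others. Grin2d was at 20.7 CPM in Msh3-/- M1, against 12.9 to 16.1. Grid2ip was at 1.73 CPM in wild-type M1, against 1.09 to 1.33. Grid1 was at 78.0 CPM in wild-type M3, against 88.2 to 94.3, and this mouse makes the overlap with zQ175 mice. Dlg2 was at 561 CPM in wild-type F2, against 484 to 517. Grm3 was at 110 CPM in wild-type F4, against 89.9 to 94.4, and at 103 CPM in Msh3-/- M2, against 85.9 to 93.5. Of the list genes, Neto1 was at 115 CPM in zQ175:Msh3-/- F3, against 91.5 to 102, and Ppp1r9a in the same mouse at 658 CPM, against 559 to 605. Lrrtm1 was at 50.3 CPM in zQ175 M3, against 53.1 to 54.7. No cause was tested for any of these.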

How the results depend on the processing

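With Msh3 present, the count of 10 lowered members was 17 without a fold threshold, beside 13.5% of all genes. At 1.5-fold it was 3, beside 2.16%. It stayed within 1.5 times of 10 under the 13 other settings, beside 2.6% to 7.23% of all genes. With each mouse left out it was 10 to 13, beside 6.34% to 7.13%. The count of 1 raised member was 2 without a fold threshold, beside 13% of all genes, and 0 at 1.5-fold, beside 1.08%. It was 0 without a filter on low counts, beside 2.24%. By limma on log2(TPM + 0.1), on log2(TPM + 1) and without a filter it was 2, beside 5.91%, 5.23% and 3.81%. It was 0 in males, 4 in females and 0 with the cortical term, beside 2.54%, 4.71% and 4.64%. With each mouse left out it was 1 to 1, beside 4.31% to 5.11%.

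Without Msh3, the count of 11 lowered members was 3 at 1.5-fold, beside 1.81% of all genes. By limma on log2(TPM + 0.1), on log2(TPM + 1) and without a filter it was 7, beside 3.14%, 2.98% and 2.07%. With each mouse left out it was 10 to 12, beside 5.52% to 6.04%. The count of 4 raised members was 0 at 1.5-fold, beside 1.22%, and 1 without a filter on low counts, beside 2.05%. It was 2 with the replicate block, beside 4.52%, 1 in males, beside 3.77%, and 2 in females, beside 2.36%. With the cortical term it was 1, beside 4.55%, and with each mouse left out 1 to 4, beside 3.96% to 5.08%.

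In zQ175:Msh3-/- against wild-type mice, the count of 13 lowered members was 4 at 1.5-fold, beside 1.94% of all genes. It was 7 by each of the 3 TPM settings, beside 3.38%, 3.18% and 2.21%. With each mouse left out it was 10 to 13, beside 6.11% to 6.83%. The count of 2 raised members was 4 without a fold threshold, beside 13.3%, and 0 at 1.5-fold, beside 1.48%. It was 1 without a filter on low counts, with the replicate block and with only the groups compared, beside 2.57%, 5.18% and 5.44%. By each of the 3 TPM settings it was 5, beside 7.69%, 6.77% and 4.91%. It was 0 in males and with the cortical term, beside 3.05% and 5.08%. With each mouse left out the count of raised members was 1 to 4, beside 4.93% to 5.84% of all genes. It was 1 without wild-type F1, F2, F3 or F4 or zQ175:Msh3-/- M1, F2 or M5, and 4 without wild-type M1 or zQ175:Msh3-/- M3.

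The counts of 0 for Msh3 loss and for the difference of the zQ175 effects were 0 under every setting run, 15, 15 and 14 in number, and with each mouse left out. RLE size factors moved Grin2b with Msh3 and Grm3 without it just past the fold threshold. No member changed direction under any setting in a comparison where it was called. The cause of these changes was not tested. The replicate block assumes that mice of the same number belong together, which the labels do not say. After genotype means were removed, same-numbered wild-type and zQ175 mice correlated across genes at -0.132 to 0.409, above 0.1 in 3 of 8 pairs. For Msh3-/- and zQ175:Msh3-/- mice this was -0.15 to 0.279, above 0.1 in 3 of 7 pairs, for zQ175 and zQ175:Msh3-/- mice -0.104 to 0.245, above 0.1 in 4 of 7, and for wild-type and zQ175:Msh3-/- mice -0.04 to 0.324, above 0.1 in 4 of 7. For wild-type and Msh3-/- mice it was -0.061 to 0.161, above 0.1 in 2 of 8. In the order given, the own number was the best match in 2, 1, 2, 2 and 1 pairs. With the replicate block, Homer2 (0.27) and Shank2 (0.23) were not called without Msh3, Grin3b (-0.53) and Grm8 (0.23) not in zQ175:Msh3-/- against wild-type mice, and Grin3b (-0.51) was called with Msh3. Depth limits Grin3b, with 7 to 33 reads per mouse, and Grid2ip.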
